A study of Arabidopsis thaliana with 4 samples.

Results

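LTI30, COR15A, COR15B and COR47 are 4 cold-regulated genes of Arabidopsis thaliana, followed here across 35S:miR396 and wild-type seedlings. They were chosen by name, each through the probe set that the platform annotation gives to that gene alone. They are 4 of 13286 genes with such a probe set, among 22746 probe sets without controls, and all 4 passed the filter that left 15922 probe sets for testing. Col-0 seedlings were taken whole at 10 days of age, after growth on Murashige-Skoog salts under long days at 23 °C, and the labels name no cold treatment. Total RNA of each sample was read on 1 Affymetrix array, with 2 arrays of wild type (replicates 1b and 2) and 2 of 35S:miR396 (replicates 1 and 2). In 35S:miR396 plants the 35S promoter of cauliflower mosaic virus, active in most tissues, drives the microRNA miR396, and the labels do not say how many lines were used or whether RNA was pooled. Nor do they state that replicates were separate cultures, and the p-values therefore cover the spread between these arrays, which could be technical.

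Cold-regulated (COR) genes encode hydrophilic proteins that accumulate when a plant is chilled, dried or exposed to abscisic acid. The CBF transcription factors switch many of them on by binding a C-repeat element in their promoters, and the products protect membranes and enzymes while cells freeze or lose water. COR15A and COR15B are chloroplast stroma proteins that stabilise membranes. COR47 and LTI30 (also called XERO2) are dehydrins, which stay unfolded in solution and associate with membranes or proteins in dry or cold cells.

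The probe sets were 252102_at for LTI30 (locus AT3G50970), 263497_at for COR15A (AT2G42540), 263495_at for COR15B (AT2G42530) and 259570_at for COR47 (AT1G20440). In the TAIR10.1 annotation COR15A and COR15B are next to each other on chromosome 2. LTI30 on chromosome 3 has the dehydrin gene XERO1 as a direct neighbour, and COR47 on chromosome 1 has the dehydrin gene ERD10. Signals from close relatives can cross-hybridise, which these data cannot show.

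The array medians were 60.5 to 81.3 in deposited signal, so a median-centring of every array on the log2 scale came before any comparison. Wild type 1b was counted here as number 1, beside 35S:miR396 1, which the labels do not state. Arrays with the same number in this sense resembled each other more than arrays of the same genotype. Over the tested probe sets the log2 differences had an SD of 0.363 within number 1 and 0.349 within number 2, but 0.575 within wild type and 0.570 within 35S:miR396. What the number stands for is not stated. Of the seedling markers, 4 of 6 leaf genes and 2 of 4 root genes were measured. The leaf gene LHCB4.1, of the light-harvesting antenna, was at 11775 to 13507 and the root gene PYK10, a beta-glucosidase, at 1195 to 1497, while the one measured flower or pollen gene, AT5G10130, was at 1.0 to 3.4. The other measured root gene, EXPA7, was at only 3.3 to 20.1 and did not pass the filter. None of 6 seed genes had a probe set of its own.

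LTI30, COR15A and COR15B stood several-fold higher on both arrays of number 2 than on both arrays of number 1, in wild type and 35S:miR396 alike, and COR47 did not. Within each number, the centred signal of LTI30 was at least 1.55-fold lower in 35S:miR396, while the ratios of the other 3 genes lay between 0.872-fold and 1.36-fold, and none of the 4 passed the test between the genotypes. The plot of signals by array shows both patterns.

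**Figure D1:**
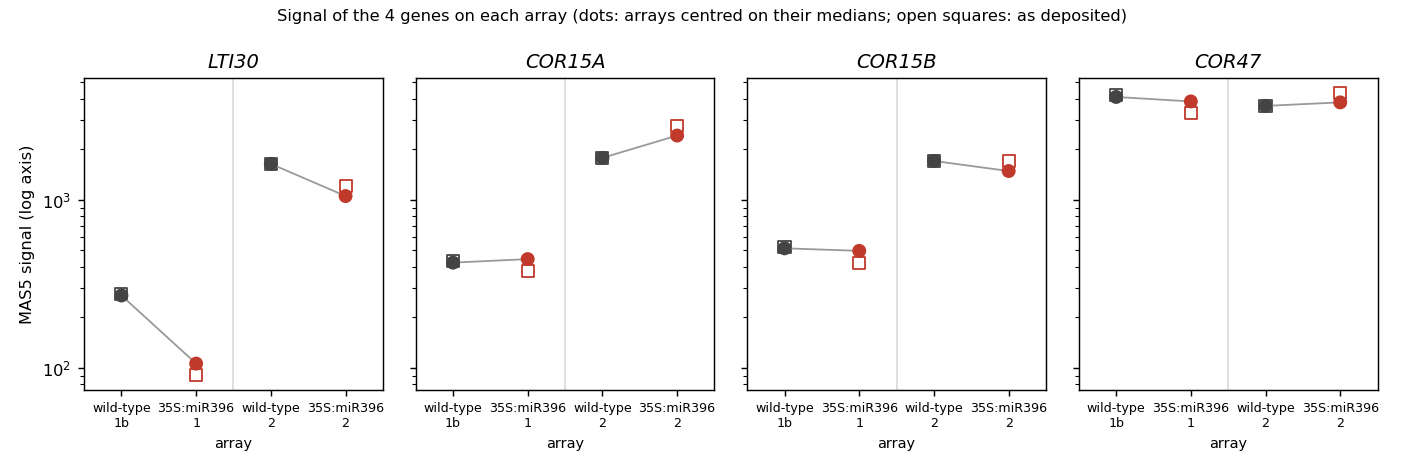
MAS5 signal (log axis) of each gene on the 4 arrays, with grey for wild type and red for 35S:miR396; filled dots are signals of median-centred arrays, open squares are deposited signals, and grey lines join the arrays of one number. LTI30, COR15A and COR15B lie higher on the right, in number 2, while the 4 deposited signals of COR47 stay between 3278 and 4349.

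LTI30 had deposited signals of 276.6 on wild type 1b, 90.4 on 35S:miR396 1, 1643 on wild type 2 and 1206 on 35S:miR396 2. The arrays of number 2 did not overlap those of number 1, as was so for 27% of tested probe sets in this direction, and the lowest and the highest signal came from different genotypes. After centring, number 2 was 6.06-fold above number 1 in wild type and 9.93-fold above it in 35S:miR396. In limma's moderated test over all 15922 probe sets the log2 difference between the numbers was 2.96 (SE 0.37, n = 2 arrays each, 95% interval 2.10 to 3.81, Benjamini-Hochberg adjusted p = 0.00108), and number 2 was higher in 2 of 2 genotypes. Only 9 tested probe sets had a larger log2 difference. With robust fitting in limma the call was lost (adjusted p = 0.107).

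COR15A, the best-known of the chloroplast pair, was at 433.6 on wild type 1b and 378.2 on 35S:miR396 1, and at 1783 on wild type 2 and 2761 on 35S:miR396 2. The numbers again did not overlap. Centred signals rose 4.2-fold from number 1 to number 2 in wild type and 5.43-fold in 35S:miR396. The log2 difference was 2.26 (SE 0.14, 95% interval 1.94 to 2.57, limma adjusted p = 7.3e-05), exceeded by 40 of the tested probe sets.

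COR15B, the tandem neighbour, was at 527.6 on wild type 1b and 423.5 on 35S:miR396 1, and at 1709 on wild type 2 and 1698 on 35S:miR396 2. Its signals on the arrays of number 2 were nearly equal as deposited. After centring it stood 3.31-fold higher in number 2 in wild type and 2.98-fold higher in 35S:miR396. The log2 difference was 1.65 (SE 0.10, 95% interval 1.42 to 1.88, limma adjusted p = 6.94e-05), exceeded by 130 tested probe sets. This interval lies wholly below those of COR15A and LTI30, which overlap each other. Differences between the genes were not tested.

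COR47 did not follow the others between the numbers. This dehydrin was at 4194 on wild type 1b and 3278 on 35S:miR396 1, and at 3634 on wild type 2 and 4349 on 35S:miR396 2. The numbers thus overlapped as deposited. After centring they did not, with 4095 and 3852 in number 1 and slightly lower values of 3623 and 3802 in number 2, wild type first. The share of tested probe sets without overlap in this lower direction is not given here. In the higher direction it was 27%, so such a separation alone says little about COR47. Its log2 difference, number 2 minus number 1, was -0.10 (SE 0.08, limma adjusted p = 0.473), with a 95% interval from -0.29 to 0.10 that lies wholly below the intervals of the other 3 genes. The sign depends on scaling, as the value was 0.10 on deposited signals and 0.0017 after quantile normalization. Over the tested probe sets, 65.5% shifted more upward in wild type and 46.3% in 35S:miR396, so COR47 lay near the middle.

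The shifts between the numbers had the same order of size in both genotypes: LTI30, then COR15A, COR15B and COR47. In wild type the log2 shifts were 2.60, 2.07, 1.73 and -0.18 in that order, and in 35S:miR396 they were 3.31, 2.44, 1.58 and -0.02. A difference between the numbers was widespread on these arrays: 1433 of 15922 probe sets, or 9%, passed as higher in number 2 and 1583, or 9.94%, as lower. On deposited signals, which leave the array medians apart, the split was 1684 higher and 506 lower, and the median log2 difference of all tested probe sets moved from -0.04 to 0.16. Thus 3 of 4 genes passed as higher against a background of 9%, a contrast already known when the genes were chosen. Shifts at least as large as the smaller one of COR15B, in both genotypes, were found in 86 probe sets (0.54%), as large as that of COR15A in 27 (0.17%), and as large as that of LTI30 in 11 (0.0691%), each count including the gene itself.

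**Figure D2:**
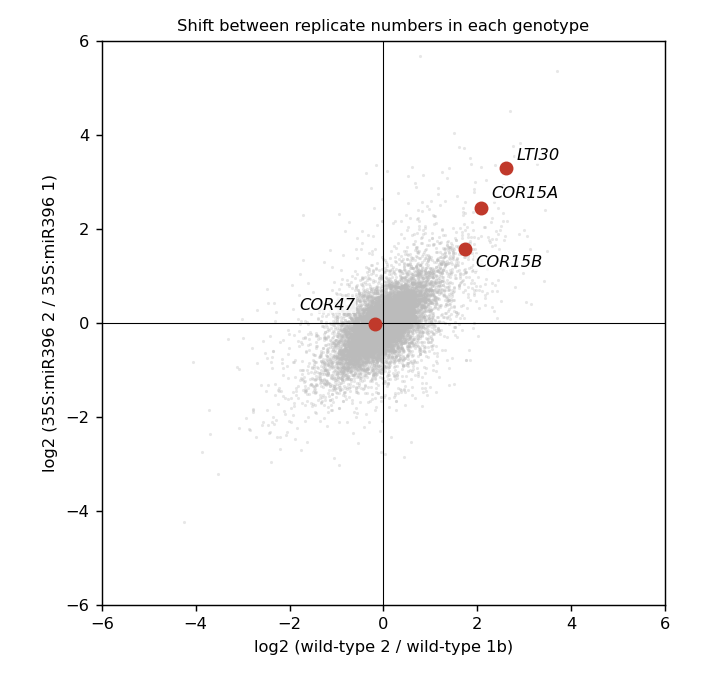
Log2 ratio of the number 2 array to the number 1 array, in wild type (x axis) and in 35S:miR396 (y axis), arrays centred on their medians; grey points are the 15922 tested probe sets and red points the 4 genes. LTI30, COR15A and COR15B lie at the upper right edge of the cloud, from 1.58 to 3.31 on either axis, and COR47 lies near the origin.

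Tissue markers were read beside this shift. The summed deposited signal of the 4 measured leaf genes was 43203 and 37377 on the arrays of number 1 and 39388 and 41343 on those of number 2, and that of the 2 root genes was 1336 and 1200 against 1200 and 1517. Nearly all of the root sum came from PYK10, as EXPA7 was at 3.3 to 20.1. Among the leaf genes, LHCB4.2 fell in number 2 (log2 difference -0.39, limma adjusted p = 0.0124) and the other 3 did not pass, beside 9.94% of all tested probe sets passing as lower. On centred signals all 4 leaf genes had a log2 difference below 0, with a median of -0.16 beside -0.04 for all tested probe sets. The part of tissue makeup in the shift was not tested. In whole seedlings, fewer cells that express a gene and less RNA per cell cannot be told apart.

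Setting 35S:miR396 against wild type asks for transcripts that respond to extra miR396. None of the 4 genes passed it, against a background of 0% (0 of 15922 probe sets by limma at an adjusted p under 0.05, where the lowest adjusted p was 1, and 103, or 0.647%, at an unadjusted p under 0.05). Each of LTI30, COR15A and COR15B varied more within a genotype than between genotypes, so the intervals are wide.

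The mean signal of LTI30 was 959.7 ± 966 (SD, n = 2) on the wild-type arrays and 648.2 ± 788.8 on the 35S:miR396 arrays. The log2 fold change of 35S:miR396 over wild type was -0.99, with a 95% interval from -4.54 to 2.56 (limma adjusted p = 1). Its sign changed with the arrays kept: it was 0.31 without wild type 2 and 0.66 without 35S:miR396 1, and below 0 without either of the others. Leaving out 1 array makes the numbers unequal between the genotypes, so these values carry the large shift between the numbers. They therefore cannot show how stable the genotype difference is. Within a number the centred signal was lower in 35S:miR396 both times, by 2.54-fold in number 1 and 1.55-fold in number 2. A ratio as low was rare on 1 pair of arrays, with 83 of 15922 probe sets (0.521%) lower in number 1 and 517 (3.25%) lower in number 2. In 66 probe sets (0.415%), LTI30 among them, the ratio was at or below -0.64 on the log2 scale in both numbers. Each ratio alone sets 1 array against 1 and has no test. In a fit with the replicate number as a block LTI30 passed on centred signals, and did not on deposited or quantile-normalized ones.

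COR15A averaged 1108 ± 954 (SD, n = 2) on the wild-type arrays and 1570 ± 1685 on the others. Its log2 fold change was 0.26 (95% interval -2.45 to 2.96, limma adjusted p = 1). It turned to -0.78 without wild type 1b and -0.97 without 35S:miR396 2, where the shift between the numbers again enters. Within the numbers the centred log2 ratio was 0.07 in number 1, which became -0.20 on deposited signals, and 0.44 in number 2. In number 2, 6.64% of tested probe sets had a higher ratio.

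COR15B averaged 1118 ± 835 (SD, n = 2) on the wild-type arrays and 1061 ± 901 on the 35S:miR396 arrays. The log2 fold change was -0.12 (95% interval -2.12 to 1.87, limma adjusted p = 1). Without wild type 2 it was 0.74 and without 35S:miR396 1 it was 0.66, values that also carry the shift between the numbers. The centred log2 ratios within the numbers were -0.05 and -0.20, well inside the range of -0.52 to 0.51 that held the 5th to the 95th percentile of all tested probe sets in number 2. Its tandem neighbour COR15A thus lay on the other side of 0 in number 2, and that difference was not tested.

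COR47 had the narrowest interval of the 4. It averaged 3914 ± 396 (SD, n = 2) on the wild-type arrays and 3814 ± 757 on the 35S:miR396 arrays, and the log2 fold change was -0.01 (95% interval -0.37 to 0.35, limma adjusted p = 1). In linear terms the interval runs from 0.775-fold to 1.28-fold, so these arrays leave room for a change of that size in either direction. The centred log2 ratio was -0.09 in number 1 and 0.07 in number 2.

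**Figure D3:**
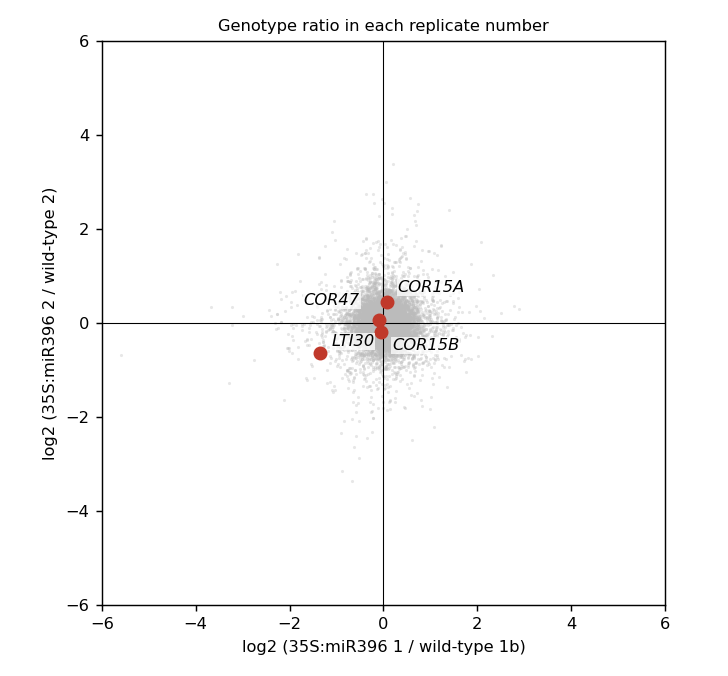
Log2 ratio of the 35S:miR396 array to the wild-type array in number 1 (x axis) and in number 2 (y axis), arrays centred on their medians; grey points are the 15922 tested probe sets and red points the 4 genes. LTI30 lies apart at the lower left (-1.35 and -0.64), and the other 3 genes lie between -0.20 and 0.44 on both axes.

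Across the 4 arrays the profiles of the 3 shifting genes were nearer to each other than to COR47. With each gene's own mean removed, the Euclidean distance in log2 units was 0.760 between COR15A and COR15B, 1.44 between LTI30 and COR15A and 1.62 between LTI30 and COR15B, against 3.22, 2.37 and 1.76 from COR47 to LTI30, COR15A and COR15B. The tandem pair was not each other's closest match: 35 other single-gene probe sets were closer to COR15A than COR15B was.

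The single-gene probe sets most like each gene over the 4 arrays were as follows. LTI30 was closest to AT5G20790 (distance 0.346), BHLH101, a transcription factor of iron-deficiency responses (0.442), and AT1G16850 (0.798). BHLH101 was at 16.1 and 5.2 in number 1 and 117.5 and 100.3 in number 2, in the order wild type then 35S:miR396, with signals in number 1 near or under 15.8, the lowest mean signal tested. On 35S:miR396 1, AT5G20790 at 12.6 and AT1G16850 at 6.4 were also under 15.8. COR15A was closest to AT4G16880 (0.346), AT3G60420 (0.382) and AT1G57590 (0.409). COR15B was closest to AT3G52740 (0.127), AT5G63180 (0.144) and AT4G30650 (0.145), and AT4G30650 was at 625.2 and 474.2 in number 1 and 2016 and 1777 in number 2. COR47 was closest to AT3G01690 (0.0224), AT1G72550 (0.0232) and AT2G37050 (0.0267). These distances describe 4 arrays and carry no test.

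Other genes of the cold pathway moved unevenly between the numbers. Of 24 genes listed as the CBF regulon and related cold-induced genes, 7 were measured and tested, and 5 rose in number 2 while 0 fell (limma adjusted p under 0.05), beside 9% and 9.94% of all tested probe sets, with a median log2 difference of 1.57 against -0.04 for all tested probe sets. The 5 include LTI30, COR15A and COR15B, and without the 4 genes described above 2 of 3 rose, beside the same 9%. They were COR27, a cold-induced repressor that also acts in the circadian clock, and ZAT10, a zinc finger repressor of stress genes. COR27 was at 481.0 and 442.0 in number 1 and 804.9 and 957.8 in number 2, in the order wild type then 35S:miR396, a log2 difference of 0.73 (SE 0.10, adjusted p = 0.00152), which did not pass with genotype as a term on deposited signals (0.93, adjusted p = 0.10). ZAT10 was at 332.1 and 660.2 against 1486 and 1712, a log2 difference of 1.57 (adjusted p = 0.0103), which was not past the threshold without a trend (0.103) or with robust fitting (0.197) in limma. COR28, the close relative of COR27, was at 545.3 and 520.1 against 525.7 and 781.3, a log2 difference of 0.07 (adjusted p = 0.776). The CBF1, CBF2 and CBF3 genes had no probe set of their own in the annotation, so these factors that act on the COR genes were not followed here. The annotation gives no gene to 8730 probe sets, and whether some of those read the CBF genes was not checked.

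Dehydrins other than LTI30 did not pass between the numbers. Of 10 dehydrin genes 6 were measured and 4 tested. LTI30 was the 1 of these 4 that passed, as higher, beside 9% of all tested probe sets passing as higher and 9.94% as lower. HIRD11, a small dehydrin present in most tissues, was at 6920 and 5737 in number 1 and 7554 and 9194 in number 2, in the order wild type then 35S:miR396. Its log2 difference was 0.21 (adjusted p = 0.127), which passed after quantile normalization at 0.35 (adjusted p = 0.0174). AT4G38410 was at 12.6 to 22.6 on the 4 arrays (log2 difference -0.42, adjusted p = 0.547). AT2G21490 and AT4G39130 were at 2.1 to 11.0 and 7.8 to 10.4, under the filter on low signals. Whether LTI30 differs from the other dehydrins was not tested.

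Abscisic acid and drought genes and regulators of the CBF pathway were thinly covered by the annotation. Of 33 abscisic acid and drought genes 2 were tested, and 1 rose in number 2, beside 9% of all tested probe sets. DI21, a drought-induced gene, was at 173.9 and 109.1 in number 1 and 298.7 and 333.3 in number 2 (log2 difference 1.00, limma adjusted p = 0.00275). LEA4-5, a late embryogenesis abundant protein, was at 50.2 and 6.2 against 116.6 and 77.4 (log2 difference 2.23, adjusted p = 0.0687), and like LTI30 it had its lowest signal on 35S:miR396 1. LEA4-5 passed on deposited signals (adjusted p = 1.58e-10), with genotype as a term (0.000382, 1.39e-07 on deposited and 0.0115 on quantile-normalized signals), without wild type 1b (3.61, adjusted p = 7.41e-05) and without 35S:miR396 2 (2.62, adjusted p = 0.0269), and its log2 difference was 0.86 without 35S:miR396 1. On deposited signals both tested genes of the list, 2 of 2, passed as higher, beside 1684 of 15922 probe sets. With genotype as a term 2 of 2 passed as well, beside 1701 of 15922, or 690 on deposited and 1543 on quantile-normalized signals. Of 23 regulators 2 were tested, and 1 fell, beside 9.94% of all tested probe sets. EIN3, an ethylene-pathway transcription factor that represses CBF genes, fell (log2 difference -0.45, limma adjusted p = 0.0148, but -0.25 and 0.529 on deposited signals). It also did not pass without a trend (0.103), without wild type 1b (0.0503), without wild type 2 (0.0642) or with genotype as a term on deposited signals (0.892). GIGANTEA, a clock protein, had a log2 difference of 0.31 (adjusted p = 0.0687), and passed with quantile normalization (0.33, adjusted p = 0.0462) and without 35S:miR396 1 (0.40, adjusted p = 0.0408).

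Between the genotypes, 0 of the 13 tested cold, dehydrin, abscisic acid and regulator genes passed in limma (adjusted p = 1 for each). The median log2 fold change of the 7 cold genes was 0.10, beside -0.0035 for all tested probe sets, with 4 above 0 and 3 below. Single values were 0.64 for ZAT10, 0.29 for COR28, 0.10 for COR27, 0.43 for AT4G38410, 0.05 for HIRD11, 0.04 for GIGANTEA, 0.00087 for EIN3, -0.22 for DI21 and -1.77 for LEA4-5. Leaving out 35S:miR396 1, with its signal of 6.2, took LEA4-5 to -0.16. ZAT10, COR27, GIGANTEA, EIN3, HIRD11 and DI21 changed sign when single arrays were left out. With an array left out the numbers are unequal between the genotypes, so a shift between the numbers enters these values.

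**Figure D4:**
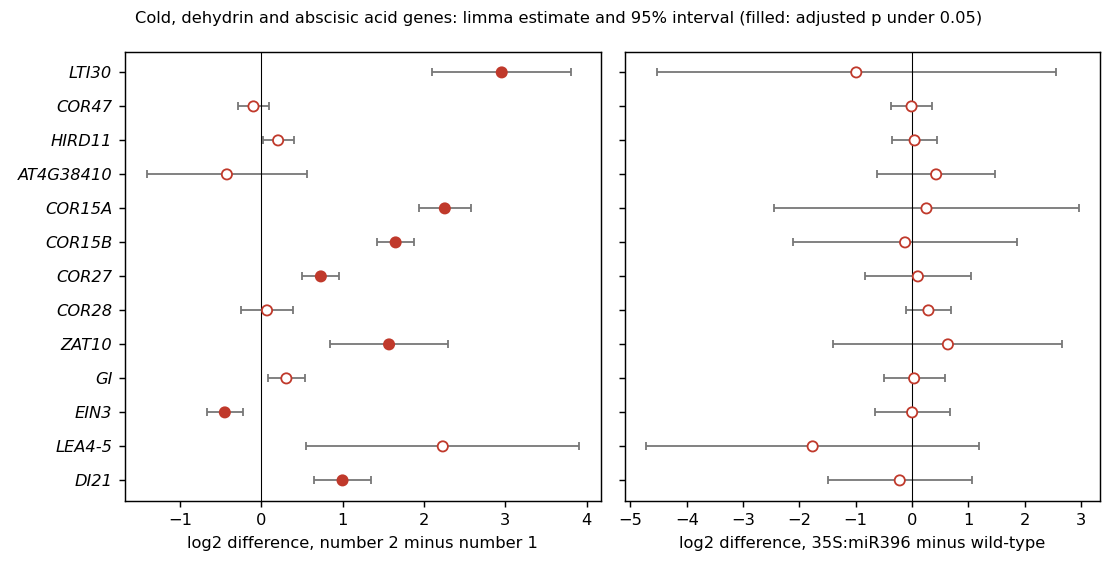
Limma log2 difference and 95% interval (bars) of the 13 tested cold, dehydrin, regulator and abscisic acid genes, number 2 minus number 1 on the left and 35S:miR396 minus wild type on the right, with different x scales; filled points passed an adjusted p of 0.05. On the left LTI30, COR15A, COR15B, COR27, ZAT10 and DI21 are filled above 0 and EIN3 below 0, and on the right no point is filled.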

How the data were processed

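The deposited values are linear MAS5 intensity for each probe set, per the submitters' processing notes; the MAS5 version, scaling target and detection calls are not given in the sources used here. Of 22810 probe sets, 64 controls were left out, and 13513 of the rest had 1 gene in the platform annotation, 503 several and 8730 none. Symbols came from RefSeq names of TAIR10.1, which matched 13436 probe sets. Values at or under 0 (6 in all) were set to 0.1, log2 was taken and each array was centred on its median, because medians differed. The lowest 30% of probe sets by mean level were left out, which kept mean signals of at least 15.8. Genotypes, and separately replicate numbers (1 and 1b against 2), went into limma 3.58.1 under R 4.3.3 (lmFit and eBayes with a trend, two-sided, no block, Benjamini-Hochberg over all 15922 probe sets, threshold 0.05). Permuting 2 against 2 arrays cannot pass that threshold. Figures were drawn with Python 3.11.15 and matplotlib 3.10.9.

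The genes and lists were chosen with earlier results of these data known. Named from each list were all measured dehydrins and up to 4 genes by absolute moderated t per comparison, and for likeness the 3 closest single-gene probe sets. COR28 and ZAT10 fall under that rule through the genotype comparison. The scripts were tested on simulated data with 200 changed probe sets. No 2 arrays held identical values, and the number of arrays limits the precision.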

Additional observations from a re-analysis of the deposited data

Results flagged for a closer look

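COR47 was flagged because its genotype ratio had opposite signs in the replicate numbers under both the centred and the deposited signals, although the centred ratios were close to 0. The centred log2 ratio of 35S:miR396 to wild type was 0.16 higher in number 2 than in number 1 (0.07 against -0.09, and 0.26 against -0.36 on deposited signals). The same centred change was 0.71 for LTI30, 0.37 for COR15A and -0.15 for COR15B. COR15A also had opposite signs on deposited signals (-0.20 in number 1 and 0.63 in number 2). How many of all tested probe sets had opposite signs was not counted. Each ratio rests on 1 array against 1, and these differences were not tested.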

How the results depend on the processing

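Both arrays of a number deviated from their genotype means together (correlation 0.627), but the labels do not say that the number pairs arrays. With the replicate number as a block, the count of probe sets past the threshold between genotypes went from 0 to 18, to 5 with deposited signals and to 0 with quantile normalization, the last 2 added after the data were seen. In the same order the log2 fold change of LTI30 was -0.99 (adjusted p = 0.00703), -1.03 (0.966) and -0.98 (0.435), so its call with the block depends on the scaling. LEA4-5 passed with the block on deposited signals (-1.80, adjusted p = 0.026) and not on the other scalings. Between genotypes COR47 turned to 0.016 with quantile normalization (with and without the block), GIGANTEA to -0.0021 and EIN3 to -0.038 on deposited signals (with and without the block), EIN3 to -0.00088 with a pseudocount, and the cold list median moved to 0.064 on deposited signals and 0.12 after quantile normalization. Within the numbers, deposited signals gave log2 ratios of -1.61 in number 1 and -0.45 in number 2 for LTI30, where centred signals gave -1.35 and -0.64. They gave -0.20 for COR15A in number 1, -0.32 and -0.0091 for COR15B, and -0.36 and 0.26 for COR47. With arrays left out in turn, genotype values ranged from -2.65 to 0.66 for LTI30, -0.97 to 1.48 for COR15A, -0.99 to 0.74 for COR15B, -0.098 to 0.079 for COR47, -0.082 to 0.17 for HIRD11, -0.46 to 1.73 for ZAT10, -0.28 to 0.49 for COR27, -0.19 to 0.26 for GIGANTEA, -0.29 to 0.29 for EIN3, -0.81 to 0.37 for DI21 and -0.46 to 0.66 for the cold list median. In those runs the numbers were unequal between the genotypes, so the ranges carry the shift between the numbers. Between numbers COR47 turned to 0.10 on deposited signals and 0.0017 after quantile normalization, with and without a term for genotype. Probe sets past the threshold numbered 3016, and 1127 without a trend, 888 with genotype as a term on deposited signals and 2290 to 2665 with arrays left out. LTI30 lost its call with robust fitting (2.96, adjusted p = 0.107), and otherwise LTI30, COR15A and COR15B stayed past the threshold in every alternative run. With arrays left out COR28 ranged from -0.12 to 0.26 and the cold list median from 0.94 to 1.63. Where no cause is named, the cause was not tested.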
